A study of Mus musculus with 2 samples.

Results

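Type I interferon-stimulated genes are the genes that a cell switches on when type I interferon reaches it, and a module of 36 of them was followed through the cell classes of the lung. The members were chosen by name from this gene family, by a rule that uses no measured value but with earlier results of these data known, and 35 of the 36 were listed among the 32286 features. Mx1 was not listed and is not analysed here. Single cells were profiled from dissociated lungs of BALB/c females aged 9 to 10 weeks that had received intravenous injections over 3 weeks, either of media conditioned by tumors (TCM) or of control media (CM). TCM is the medium in which pieces of mammary tumors of the mouse breast cancer line 4T1 had been kept without serum, and the comparison asks which lung cells respond to what such a tumor secretes before any tumor cell arrives. Each group had 1 library, and the sources used here do not give the number of mice behind it.

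Type I interferons (interferon alpha and beta) bind the receptor formed by Ifnar1 and Ifnar2, whose kinases Jak1 and Tyk2 set off the assembly of the factor ISGF3, of which STAT2 and IRF9 are parts. ISGF3 binds the interferon-stimulated response element (ISRE) in the promoters of the induced genes. The induced proteins sense viral RNA, block its translation or degrade it, restrict the entry or release of viruses, and feed back on the pathway. Lung cells carry a baseline of this response without infection, and endothelial cells, monocytes and plasmacytoid dendritic cells are known for a high one. Interferon gamma acts through another receptor, and several members, Irf1 among them, answer to both interferons.

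Cells were droplets with at least 500 unique molecular identifiers (UMIs, 1 per captured RNA molecule), at least 200 detected genes and at most 10% mitochondrial UMIs. This left 7988 CM cells (median 2085 UMIs) and 7707 TCM cells (median 2346 UMIs), and 93 cell barcodes occurred in both libraries. Each cell took the class whose marker genes exceeded their mean share most clearly, and 1 of 28 classes could be given to 79.1% of CM cells and to 85.0% of TCM cells. Comparisons used the 17 classes that had 50 or more cells per library, 6020 CM and 6341 TCM cells in all. All of a class's own markers were detected in both libraries in 16 of the 17, and 7 of 8 in NK cells. Markers of neutrophils were higher in TCM in all 16 other classes, by 0.17 to 3.02 on the log2 scale, and at least 2-fold higher in 7 of them. RNA outside cells also differed, estimated at 170 UMIs in a CM cell and 278 in a TCM cell from droplets with at most 50 UMIs, and at 113 and 141 from droplets with 51 to 200 UMIs. With 1 library per group there were no replicates and no test, and intervals cover counting error only.

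The ISRE is the sequence that ISGF3 binds, so promoter windows that hold its core are shown for 6 members on which the results below turn. Sequences are from RefSeq on build GRCm38.p6, printed 5' to 3' on the strand of the gene and ending before the transcription start. Capitals mark the core searched for, which is GAAA, any 2 bases and GAAA again, or on the other strand TTTC, any 2 bases and TTTC, and overlapping cores were counted.
Isg15 (chr4:156200860-156200911, minus strand): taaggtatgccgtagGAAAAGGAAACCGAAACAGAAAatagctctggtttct
Bst2 (chr8:71537572-71537617, minus strand): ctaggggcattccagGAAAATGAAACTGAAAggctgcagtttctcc
Rsad2 (chr12:26456548-26456587, minus strand): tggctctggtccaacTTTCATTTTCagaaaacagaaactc
Ifit3 (chr19:34583358-34583431, plus strand): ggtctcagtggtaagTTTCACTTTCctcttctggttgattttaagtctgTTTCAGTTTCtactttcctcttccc
Ifit3b (chr19:34607754-34607827, plus strand): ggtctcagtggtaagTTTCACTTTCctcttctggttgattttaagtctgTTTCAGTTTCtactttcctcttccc
Trim30a (chr7:104465205-104465244, minus strand): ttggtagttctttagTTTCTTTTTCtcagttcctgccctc

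Promoters of 300 bases, 250 before the start and 50 after it, were matched for 28 of the 36 members. Of these 28, 14 (50%) held the ISRE core, against 3.99% of 27025 genes with a promoter. In 11 members a core lay wholly before the start. Isg15 held 3 overlapping cores, the first of them 78 bases before the start, and Bst2 held 2. The windows of Ifit3 and Ifit3b, neighbouring genes on chromosome 19, were identical over all 74 bases. Reads of such close copies, and of Oas1a, Trim30a, Ifi203 and Ifi204 with their relatives, may have been split or lost in counting, and their sums are uncertain for that reason. No ISRE core was found in the window of Irf1. A match describes these letters only.

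The module's level differed widely between cell classes. Levels are given as CP100k, the UMIs of a gene or of the module per 100000 UMIs of the class, not divided by gene length because the kit reads RNA from its 5' end. In CM, classical monocytes had the highest level at 682 CP100k (95% interval 655 to 710, 2400 UMIs), followed by aerocyte capillary endothelial cells at 645 (629 to 662) and neutrophils at 643 (617 to 670). These 3 intervals overlapped, and general capillary endothelial cells came next at 581 (572 to 590), clear of them. Large vessel endothelial cells had 388 CP100k, B cells 253, AT1 cells 252 and pericytes 235, and the intervals of the last 3 overlapped. The lowest levels were those of smooth muscle at 83.4 (77.4 to 89.7) and alveolar macrophages at 84.5 (79.7 to 89.5), which also overlapped. In TCM the order at the top changed, with aerocytes first at 640 CP100k (626 to 654), then neutrophils at 566 (556 to 575) and general capillary cells at 565 (558 to 573), with classical monocytes after them at 543 (529 to 557). Capillary endothelium, neutrophils and classical monocytes therefore stood above the epithelial, fibroblast, macrophage and lymphocyte classes in both libraries. Plasmacytoid dendritic cells, professional producers of type I interferon, were too few to compare, but their 33 CM and 8 TCM cells had higher module levels than any compared class, at 904 (855 to 956) and 852 CP100k (754 to 959).

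**Figure D1:**
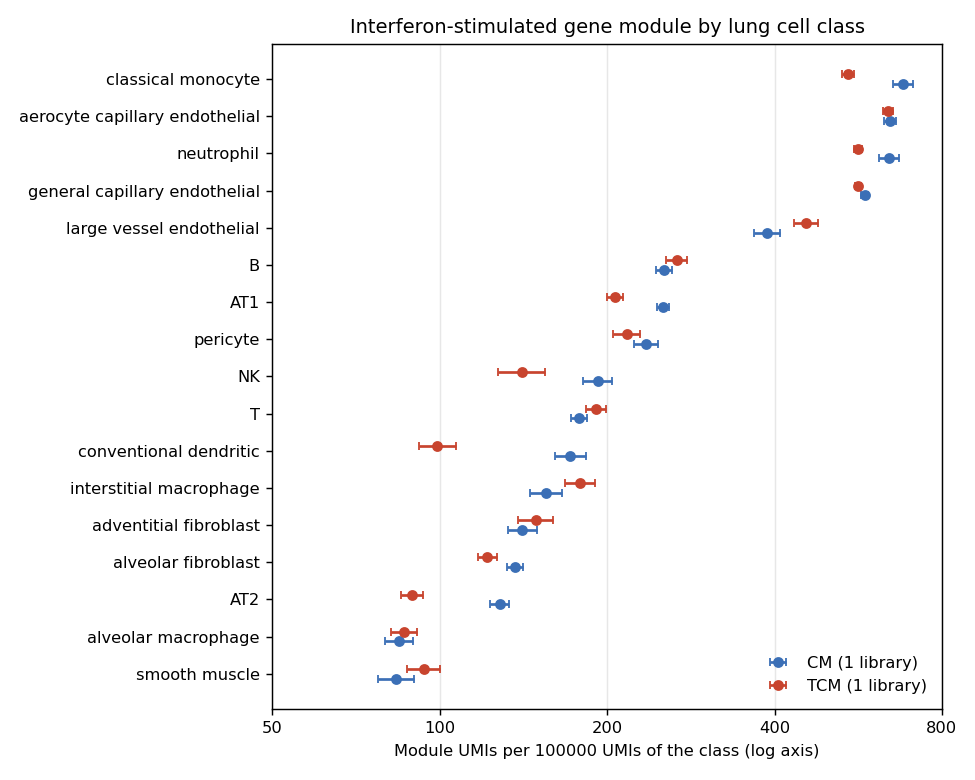
Module level, in UMIs of the 35 listed members per 100000 UMIs of the class (log axis), in the 17 compared classes for CM (blue) and TCM (red), 1 library each. Bars are 95% Poisson intervals, counting error only. Conventional dendritic cells show the widest gap between the libraries, 172 in CM and 99.0 in TCM.

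Which members filled the module depended on the cell class. Ly6e, a surface protein that interferes with the fusion of viruses, had the most UMIs over both libraries in 11 of the 17 classes. It held 57.9% of the module's UMIs in CM and 64.8% in TCM in aerocytes, 45.3% and 47.2% in general capillary cells, 42.0% and 44.5% in classical monocytes and 52.9% and 57.9% in B cells. In neutrophils Ly6e made up 9.37% and 8.58%, and Isg15, a ubiquitin-like protein that is joined to other proteins, took the lead with 38.4% and 35.3%. The neutrophil level of Isg15 was 247 CP100k in CM (880 UMIs) and 199 CP100k in TCM (5246 UMIs). Irf1, a transcription factor that both interferons induce, led in smooth muscle with 35.6% and 30.9% and in alveolar fibroblasts with 25.2% and 25.5%. Samhd1, an enzyme that depletes deoxynucleotides, led in alveolar macrophages with 22.5% and 24.3%. The same module level was therefore made up of different genes in different classes. The module's UMIs were also spread unevenly over cells. The tenth of cells with most module UMIs carried 62.7% of them in CM AT2 cells and 50.3% in CM conventional dendritic cells, against 31.0% in CM B cells. Cells were ranked here by module UMIs and not by share, so the total UMIs of a cell also enter these values.

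**Figure D2:**
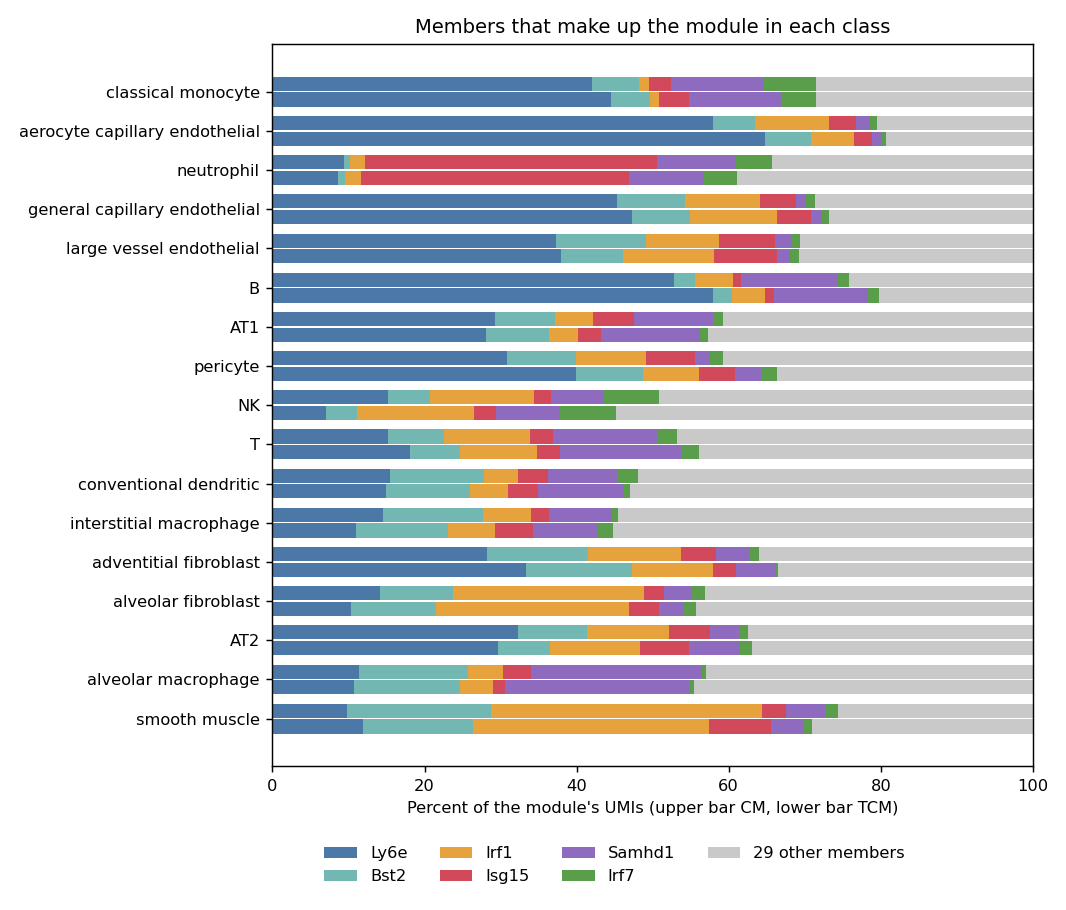
Percent of the module's UMIs held by 6 abundant members and by the 29 others, per cell class, with CM as the upper bar and TCM as the lower bar of each pair. Ly6e (dark blue) fills most of the bar in aerocytes and Isg15 (red) is the widest of the 6 named colours in neutrophils only.

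Between the libraries, the module's share was lower in TCM in 10 classes and higher in 7, and past 2-fold in none. The log2 ratio of TCM over CM ran from -0.80 in conventional dendritic cells to 0.23 in large vessel endothelial cells. Its counting interval lay below 0 in 9 classes, above 0 in 4 and included 0 in 4. After conventional dendritic cells, the lowest ratios were those of AT2 cells (-0.52), NK cells (-0.46), classical monocytes (-0.33), AT1 cells (-0.29) and neutrophils (-0.18). The median ratio of the members tested, those with at least 20 UMIs in both libraries of a class together, was below the median of all genes tested in 13 of the 17 classes. Over all cells without regard to class the module went the other way, from 284 CP100k in CM to 323 in TCM, 13.9% higher. Over the 17 compared classes together it went from 270 to 317 CP100k. Neutrophils held 1.76% of the UMIs of the compared classes in CM and 11.8% in TCM, and with them 4.19% and 21.1% of the module's UMIs. The endothelial classes rose from 20.7% to 24.4% of the UMIs, and classical monocytes from 352016 to 1065374 UMIs. With the class shares of CM kept in both libraries, the TCM level of the compared classes differed from that of CM by -6.02%. With the class shares of TCM it differed by -7.92%, lower in both cases.

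**Figure D3:**
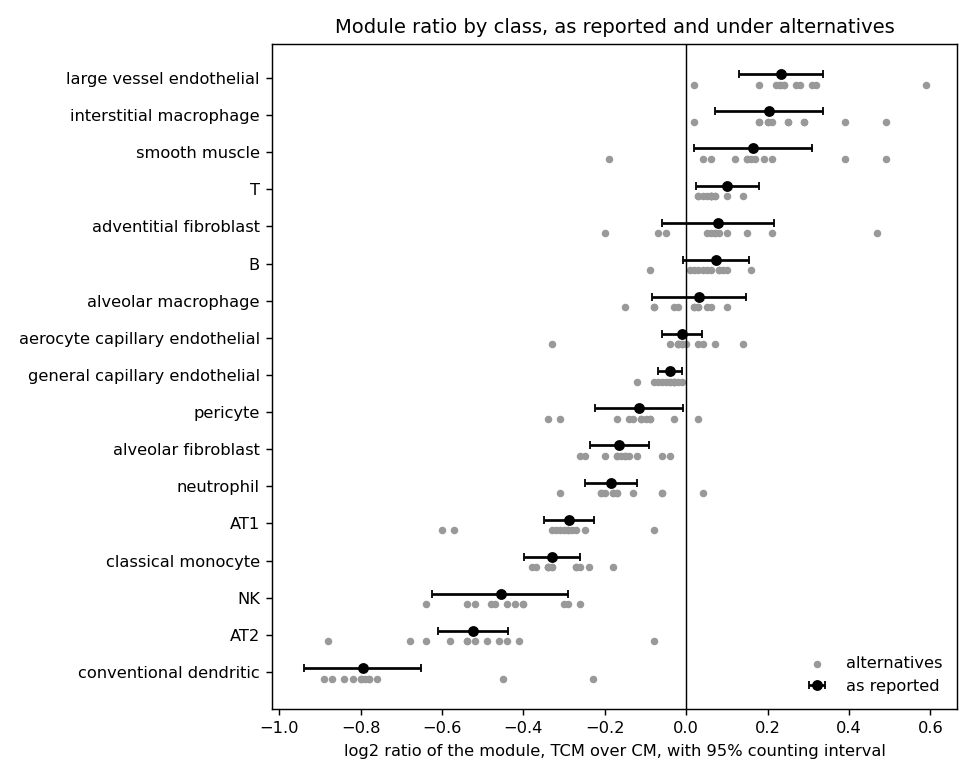
Log2 ratio of the module's share, TCM over CM, in each class (black, with the 95% counting interval) and under each alternative way of processing (grey). Conventional dendritic cells stand lowest at -0.80, with 1 alternative at -0.23, and 11 of the 12 alternatives in smooth muscle keep the sign of the reported 0.16.

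Counted gene by gene, 415 of the 595 pairs of a member and a class reached 20 UMIs and were tested. The other 180 stayed out for too few UMIs. A ratio above 0 was found in 36.9% of the tested pairs, against 50.5% of the pairs of all genes and classes, of which 49.5% were below 0. At least 2-fold higher in TCM were 13 pairs (3.13%, against 3.15% of all gene and class pairs), so in that direction the members stood at the background. At least 2-fold lower were 37 pairs (8.92%, against 2.86%). Of these 37 pairs, 9 came from conventional dendritic cells, 8 from AT2 cells and 6 from classical monocytes. The shares of all gene and class pairs given here, 49.5% lower, 3.15% at least 2-fold higher and 2.86% at least 2-fold lower, are also the ones to set beside the counts by role and by list below. In 38 pairs the member's ratio departed from that of the summed module in its class by at least 1 on the log2 scale. The share of all gene and class pairs that departed as far was not computed.

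**Figure D4:**
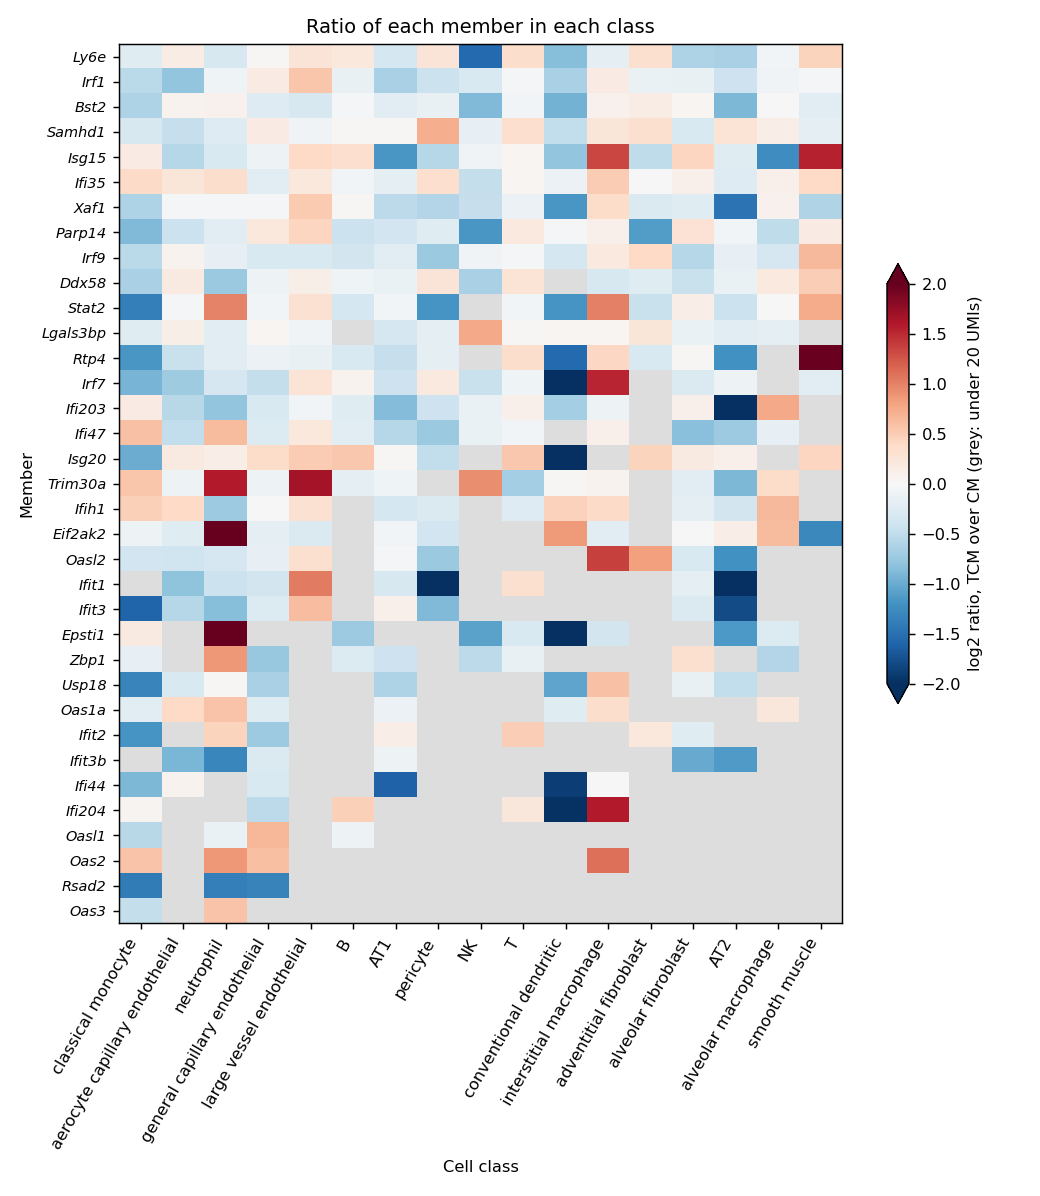
Log2 ratio of TCM over CM for each member (rows, ordered by the number of classes in which it was tested) in each class (columns, ordered by the CM level of the module), with the colour scale held between -2 and 2 and grey where fewer than 20 UMIs were counted. Blue cells (lower in TCM) make up 262 of the 415 tested pairs and gather in the conventional dendritic, AT2 and classical monocyte columns, and Rsad2 is blue in the 3 classes in which it was tested.

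The sensors are the proteins that recognise viral nucleic acid. RIG-I (Ddx58) and MDA5 (Ifih1) detect RNA in the cytosol, Zbp1 detects unusual nucleic acid helices and can start cell death, and PKR (Eif2ak2) stops translation on double-stranded RNA. Of 51 pairs tested, 32 (62.7%) were lower in TCM, and 1 (1.96%) was past 2-fold in each direction, under the share of all pairs. Both RNA sensors had their lowest ratio in neutrophils. Ddx58 had 31 UMIs in CM (8.69 CP100k) and 137 in TCM (5.21 CP100k), a log2 ratio of -0.74 (interval -1.31 to -0.13). Ifih1 had 24 UMIs (6.72 CP100k) and 107 UMIs (4.07 CP100k), a ratio of -0.73 (-1.37 to -0.02). Levels of both were lower in TCM, while Zbp1 in the same cells was higher, at 9 UMIs (2.52 CP100k) and 121 UMIs (4.60 CP100k), with an interval that included 0 (0.87, -0.11 to 2.03). Eif2ak2 rested on a single CM UMI in neutrophils against 38 in TCM, so its ratio of 2.37 had an interval from -0.20 to 7.71.

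The transcription factors of the module carry the response. STAT2 and IRF9 are parts of ISGF3, IRF7 amplifies interferon production, and IRF1 acts in both interferon pathways. They were the role group most often lower, in 49 of 65 pairs tested (75.4%), with 4 (6.15%) at least 2-fold lower and 2 (3.08%) at least 2-fold higher, and their summed ratio was below 0 in 13 of 17 classes. Irf1 was lower in 14 of 17 classes. Its lowest ratio was in aerocytes, from 564 UMIs (62.4 CP100k) in CM to 450 UMIs (36.1 CP100k) in TCM, a log2 ratio of -0.79 (-0.97 to -0.61). The neighbouring general capillary cells showed the opposite, at 1673 UMIs (57.4 CP100k) and 2451 UMIs (64.0 CP100k), a ratio of 0.16 (0.07 to 0.25), and large vessel endothelial cells too, at 37.0 and 54.6 CP100k (0.56, 0.24 to 0.89). Irf1 thus separated the endothelial classes. Ly6e was nearly level between the libraries in general capillary cells (0.02) and higher in TCM in aerocytes (0.15) and large vessel cells (0.26). Irf7 ranged from -2.36 in conventional dendritic cells to 1.52 in interstitial macrophages. Irf9 was lower in 13 of 17 classes and past 2-fold in none.

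Among the antiviral RNA-binding proteins and nucleic acid enzymes, IFIT proteins hold back the translation of foreign RNA, the OAS family activates RNase L, and Isg20 is an exonuclease. Of 91 pairs tested, 50 (54.9%) were lower, 10 (10.99%) at least 2-fold lower and 3 (3.30%) at least 2-fold higher, the last near the 3.15% of all pairs. Ifit3b was lower in all 6 classes tested, with ratios from -1.30 in neutrophils to -0.10 in AT1 cells, and Ifit1 and Ifit3 were each lower in 7 of 9. Oas2 was the reverse, higher in all 4 classes tested by 0.57 to 1.09, although each of the 4 intervals included 0. Oas3 was higher in neutrophils, with 37 UMIs (10.4 CP100k) in CM and 404 UMIs (15.3 CP100k) in TCM and a ratio of 0.57 (0.08 to 1.09). Isg20 was higher in 11 of 14 classes, by at most 0.54, and 2.02 lower on the log2 scale in conventional dendritic cells. Members of this group thus stood on both sides of 0.

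The ISG15 pathway was measured by Isg15 and by Usp18, the protease that removes ISG15 from proteins and dampens the receptor. Isg15 was lower in 10 of 17 classes and higher in 7, with the extremes in alveolar macrophages (-1.24) and smooth muscle (1.53). In AT1 cells it had 305 UMIs (13.7 CP100k) in CM and 104 UMIs (6.11 CP100k) in TCM, a ratio of -1.16 (-1.50 to -0.84). Usp18 was lower in 7 of 9 classes, with its lowest ratio in classical monocytes at 19 and 23 UMIs (5.40 and 2.16 CP100k), or -1.32 (-2.26 to -0.36). Isg15 was also the member whose level outside cells differed most in absolute terms after Ly6e, at 9.61 CP100k of the free RNA in CM and 27.6 CP100k in TCM.

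Of the proteins that restrict the entry, replication and release of viruses, Bst2 tethers budding particles to the cell, viperin (Rsad2) makes a nucleotide that ends RNA chains, and Ly6e acts at entry. Rsad2 was at least 2-fold lower in TCM in each of the 3 classes in which it was tested. Its ratio was -1.36 in neutrophils, -1.39 in classical monocytes (13 and 15 UMIs) and -1.33 in general capillary cells (23 and 12 UMIs). Bst2 was lower in 12 of 17 classes and ranged from -0.95 to 0.15. Ly6e was lower in 9 and higher in 8, and was past 2-fold in NK cells alone, where it was lower. The remaining 11 members were lower in 90 of 145 pairs tested (62.1%), at least 2-fold lower in 14 (9.66%) and at least 2-fold higher in 5 (3.45%). Xaf1, a promoter of apoptosis, was lower in 13 of 17 classes, whereas Ifi35 was higher in 11 of 17 and past 2-fold in none.

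Conventional dendritic cells, which present antigen to T cells, had the lowest ratio of the module. It made up 968 UMIs (172 CP100k) over 74 CM cells and 659 UMIs (99.0 CP100k) over 81 TCM cells, a log2 ratio of -0.80 (-0.94 to -0.65). Of 23 members tested, 19 were lower, against 51.2% of all genes, and 9 were at least 2-fold lower, against 3.08% of all genes. None was at least 2-fold higher, against 5.12%. Epsti1, an interferon-induced gene of epithelial and myeloid cells, had 88 UMIs (15.6 CP100k) in CM and 22 UMIs (3.30 CP100k) in TCM, a ratio of -2.24 (-2.99 to -1.55). Irf7 had 26 and 6 UMIs (-2.36), Isg20 had 24 and 7 (-2.02), Ifi204 had 20 and 6 (-1.98) and Ifi44 had 25 and 8 (-1.88), all lower in TCM. The 3 most abundant members were lower as well, Ly6e at 26.6 and 14.7 CP100k, Bst2 at 21.1 and 10.96 and Samhd1 at 15.6 and 11.1. Ifih1 and Eif2ak2 departed from the module in the other direction, at 0.46 and 0.85, with intervals that included 0.

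The CM sum of these dendritic cells rested on few cells. The 10 cells with most module UMIs held 56.3% of it in CM and 36.3% in TCM, and the 10 cells with most Epsti1 held 94.3% of its CM UMIs. Without the 10 cells with most module UMIs in each library the ratio was -0.23. With classes from clusters made without the interferon genes it was -0.45, and Epsti1 then had 21 and 26 UMIs, a ratio of 0.02. Markers of alveolar fibroblasts in this class were at 4.79 CP100k in CM and 20.6 in TCM, with 8 and 9 of the 9 markers detected. Those of interstitial macrophages were at 4.08 and 17.7 CP100k, with 5 of 7 detected in each library. The part of these cells' RNA in the result was not tested.

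AT2 cells, which secrete surfactant and renew the alveolar epithelium, held 2445 module UMIs (128 CP100k) in 420 CM cells and 1959 (89.2 CP100k) in 361 TCM cells, a ratio of -0.52 (-0.61 to -0.44). Of 26 members tested, 23 were lower, against 53.1% of all genes, and 8 were at least 2-fold lower, against 3.09%. None was at least 2-fold higher, against 2.24%. Ifi203, a member of the DNA-binding p200 family, had 27 and 5 UMIs (-2.64, -4.37 to -1.24), Ifit1 had 24 and 5 (-2.47) and Ifit3 had 39 and 13 (-1.79). Among the abundant members Ly6e had 41.5 and 26.4 CP100k (-0.65), Irf1 13.9 and 10.5 (-0.41) and Bst2 11.5 and 6.19 (-0.90). All 6 were lower in TCM.

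The lower share was not spread evenly over AT2 cells. In the cluster that held most of them the module was at 61.8 CP100k in 239 CM cells and 57.6 in 299 TCM cells, a ratio of -0.10 (-0.24 to 0.04). A second cluster, of 104 CM and 51 TCM cells, had 293 and 205 CP100k, and another held 49 CM cells and no TCM cell. General capillary markers in the AT2 class were at 97.9 CP100k in CM and 66.6 in TCM, and a CM cell of the class had a median of 2580 UMIs, a TCM cell 5887. Lymphocyte markers in the class were also lower in TCM, those of B cells at 14.5 and 4.69 CP100k. Those of T cells were at 7.08 and 2.73, and of NK cells at 8.81 and 2.96. Other lists were higher in TCM, among them neutrophil markers at 26.3 and 48.5 and smooth muscle markers at 5.61 and 14.98. The part of these markers' cells in the result was not tested. When only cells with no second class above its mean share were kept, the ratio was -0.08, and Ifi203, Ifit1 and Ifit3 were left with at most 2 UMIs in each library. With the cells of highest doublet score removed it was -0.88.

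AT1 cells, the flat cells of gas exchange, held 5608 module UMIs (252 CP100k) in CM and 3509 (206 CP100k) in TCM, a ratio of -0.29 (-0.35 to -0.23). Of 29 members tested, 25 were lower, against 49.6% of all genes, and 2 at least 2-fold lower, against 2.66%, with none at least 2-fold higher, against 1.65%. Those 2 were Isg15, described above, and Ifi44, with 28 and 7 UMIs (-1.61, -3.05 to -0.38). Samhd1 and Ifit3 did not follow, at 26.5 and 27.0 CP100k (0.03) and 11.2 and 12.1 CP100k (0.11), and both intervals included 0. In the cluster that held most AT1 cells the module was at 214 CP100k in 301 CM cells and 194 in 258 TCM cells, a ratio of -0.14 (-0.23 to -0.06), and another cluster held 45 CM cells, at 258 CP100k, and no TCM cell. Lymphocyte markers in the class were lower in TCM, those of B cells at 12.98 and 1.47 CP100k (8 and 7 of 8 detected), of T cells at 12.4 and 2.53 (10 of 10 in both) and of NK cells at 8.98 and 1.18 (6 and 3 of 8), and their part in the result was not tested. The same strict selection of cells gave a module ratio of -0.08, with Isg15 at 11 and 3 UMIs.

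NK cells held 1077 module UMIs (193 CP100k) in 255 CM cells and 412 (140 CP100k) in 142 TCM cells, a ratio of -0.46 (-0.62 to -0.29). Of 17 members tested, 15 were lower, against 49.1% of all genes, and 3 at least 2-fold lower, against 3.78%, with none at least 2-fold higher, against 3.07%. Ly6e accounted for 36.9% of the difference in level, at 163 UMIs (29.1 CP100k) in CM and 29 UMIs (9.88 CP100k) in TCM, a ratio of -1.56 (-2.18 to -0.98). The CM UMIs of Ly6e came from 35 cells, and the 10 cells with most held 79.8% of them. Under the strict selection 9 and 7 UMIs remained, and the ratio turned to 0.75. Pericyte markers in the NK class were at 15.9 CP100k in CM and 5.45 in TCM, and their part in the result was not tested. Epsti1 (84 and 21 UMIs, -1.07) and Parp14 (34 and 8 UMIs, -1.16) were the other members past 2-fold. Lgals3bp and Trim30a departed upward, at 0.76 (0.03 to 1.49) and 0.93 (-0.13 to 1.99).

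Classical monocytes, which enter the lung from blood, had the highest module level in CM and a lower one in TCM, at 2400 UMIs (682 CP100k) in 82 cells and 5780 UMIs (543 CP100k) in 210 cells. The ratio was -0.33 (-0.40 to -0.26), and -0.18 without the 10 cells with most module UMIs. Those 10 cells were a larger part of the 82 CM cells than of the 210 TCM cells. Of 33 members tested, 24 were lower, against 46.4% of all genes, and 6 at least 2-fold lower, against 3.92%. None was at least 2-fold higher, against 8.03%. Irf7 had 167 UMIs (47.4 CP100k) in CM and 266 UMIs (25.0 CP100k) in TCM, a ratio of -0.93 (-1.21 to -0.64), and Rtp4, a chaperone of receptors, 64 and 86 UMIs (-1.17, -1.66 to -0.68). Stat2 had 23 and 27 UMIs (-1.37), Ifit3 13 and 13 (-1.60), and Rsad2 13 and 15 (-1.39), while Ly6e and Samhd1 were closer to the module, at -0.25 and -0.33. Ifit3 and Rsad2 rested on 3 to 6 cells in each library. Plasmacytoid dendritic and non-classical monocyte markers were also lower in these cells in TCM, at 5.68 and 2.35 CP100k and at 50 and 24.1 CP100k, and general capillary markers were higher, at 16.2 and 43.9 CP100k. Higher too were markers of interstitial macrophages, at 59.4 and 80.3, and of alveolar macrophages, at 20.5 and 36.8. Neutrophil markers rose from 40.6 to 65.0 and AT2 markers from 76.1 to 93.7. What part they had was not tested.

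Neutrophils held 8 of the 38 departures from the module, the most of any class. They also had the largest shares of all genes past 2-fold of any class, 9.31% higher and 9.32% lower. The number of departures is therefore not read as a trait of the members. There were 252 CM cells with 2294 module UMIs (643 CP100k) and 1493 TCM cells with 14879 (566 CP100k), a ratio of -0.18 (-0.25 to -0.12). Of 33 members tested, 19 were lower, against 57.8% of all genes, 2 at least 2-fold lower, against 9.32%, and 3 at least 2-fold higher, against 9.31%, so the counts were at or near the background. Rsad2 had 120 UMIs (33.6 CP100k) in 45 CM cells and 344 UMIs (13.1 CP100k) in 129 TCM cells, a log2 ratio of -1.36 (-1.67 to -1.05). Ifit3b followed at 18 UMIs (5.04 CP100k) and 54 UMIs (2.05 CP100k), or -1.30 (-2.09 to -0.44). Both were lower in TCM. Trim30a, a ubiquitin ligase that restrains inflammatory signalling, went the other way, from 40 UMIs (11.2 CP100k) in 33 CM cells to 883 UMIs (33.6 CP100k) in 614 TCM cells, a ratio of 1.58 (1.13 to 2.08). Rsad2 thus had the CM level that Trim30a had in TCM.

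Rsad2 and Trim30a kept their direction and stayed past 2-fold under the 5 alternatives that were recomputed per member. The ratio of Rsad2 lay between -1.56 and -1.24 and that of Trim30a between 1.46 and 1.73 with classes from clusters, the strict selection, free RNA subtracted, high doublet scores removed or cells thinned to 1000 UMIs. Removal of the 10 cells with most module UMIs was not recomputed for single members. Stat2 (7 and 103 UMIs), Oas2 (11 and 148) and Zbp1 (9 and 121) departed upward at 0.997, 0.87 and 0.87, with intervals that included 0. Epsti1 had 1 UMI in CM and 42 in TCM, a ratio of 2.51 with an interval from -0.05 to 7.85. The most abundant members stayed close to the module, with Isg15 at -0.31, Samhd1 at -0.26 (66.7 and 55.8 CP100k) and Ly6e at -0.31 (60.2 and 48.5 CP100k). The 10 cells with most module UMIs held 23.8% of the module's UMIs in CM and 5.66% in TCM, and without them the ratio was 0.04. Those 10 cells were a larger part of the 252 CM cells than of the 1493 TCM cells, so their removal weighed more on CM. The tenth of cells with most module UMIs held 41.4% in CM and 36.5% in TCM.

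**Figure D5:**
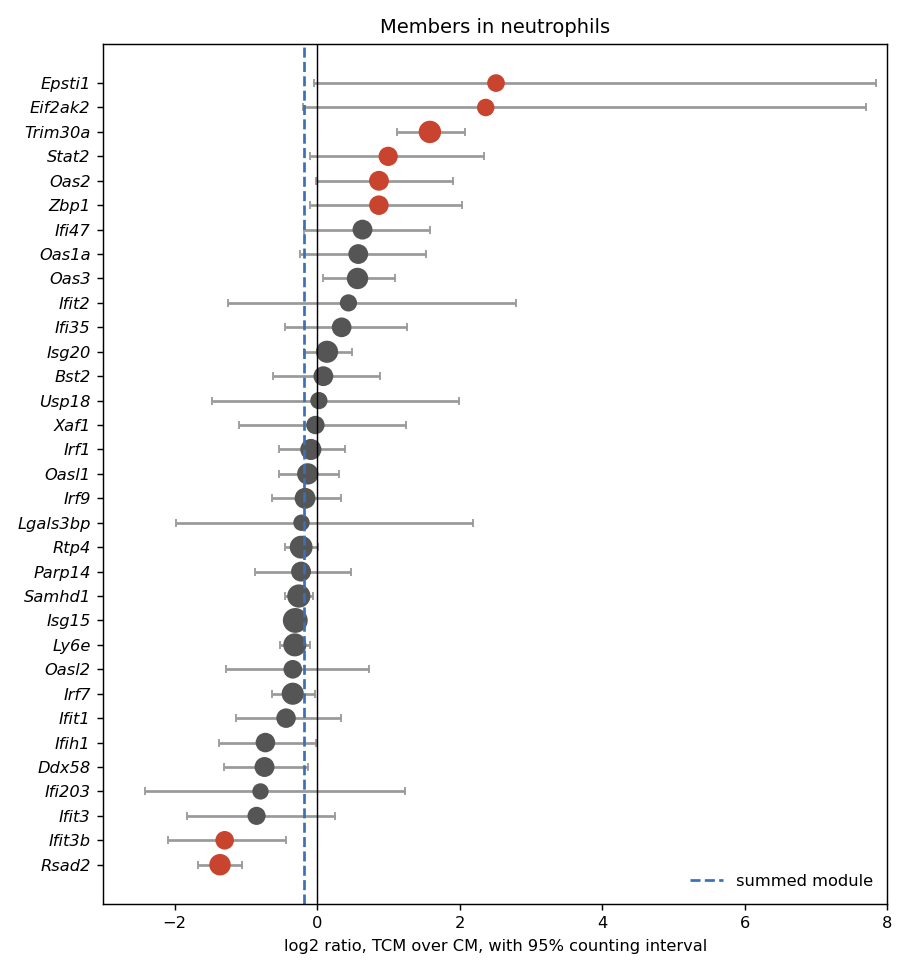
Log2 ratio of TCM over CM in neutrophils for the 33 members with at least 20 UMIs, with 95% counting intervals, larger points for more UMIs, and the summed module as a dashed line at -0.18. Members in red depart from the module by at least 1, with Rsad2 and Ifit3b at the bottom and Trim30a, the red point with the narrowest interval above 0, near the top.

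Interstitial macrophages, the macrophages of the lung tissue outside the air spaces, were among the 4 classes with an interval above 0. Their module held 870 UMIs (155 CP100k) in 120 CM cells and 996 (179 CP100k) in 124 TCM cells, a ratio of 0.20 (0.07 to 0.34). Of 26 members tested, 21 were higher, against 50.2% of all genes, and 6 at least 2-fold higher, against 3.84%, with none at least 2-fold lower, against 3.36%. Isg15 had 20 UMIs (3.57 CP100k) in CM and 50 UMIs (8.97 CP100k) in TCM, a ratio of 1.33 (0.56 to 2.16). Irf7 had 7 and 20 UMIs (1.52, 0.22 to 3.01), Oasl2 had 9 and 23 (1.36, 0.20 to 2.66), and Ifi204 had 5 and 15 (1.59, 0.06 to 3.41), each higher in TCM. Oas2 and Stat2 were the other 2 past 2-fold, with 8 and 17 UMIs and 7 and 14 UMIs. The abundant members Bst2, Ly6e and Samhd1 were at 0.08, -0.20 and 0.25, with intervals that included 0.

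Other contents of this class also differed. Neutrophil markers in it were at 15.4 CP100k in CM and 48.1 in TCM, with 9 and 10 of the 10 markers detected, and classical monocyte markers at 53.0 and 95.6 CP100k. The cluster that held most of these macrophages had a module level of 153 CP100k in 97 CM cells and 158 in 98 TCM cells, a ratio of 0.05 (-0.10 to 0.20). A further 21 TCM cells, and no CM cell, lay in another cluster at 476 CP100k. With classes taken from the clusters the ratio was 0.02, while Isg15 kept 19 and 45 UMIs (1.26). After subtraction of free RNA Isg15 had a ratio of 1.20.

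Large vessel endothelial cells had the highest ratio, with 1435 module UMIs (388 CP100k) in CM and 1644 (456 CP100k) in TCM, or 0.23 (0.13 to 0.34). Of 23 members tested, 16 were higher, against 50.7% of all genes, and 2 at least 2-fold higher, against 3.68%, with none at least 2-fold lower, against 2.92%. Trim30a had 10 UMIs (2.70 CP100k) in CM and 31 UMIs (8.60 CP100k) in TCM, a ratio of 1.67 (0.60 to 2.86), and Ifit1 had 10 and 20 UMIs (1.04, -0.13 to 2.29). Ly6e was at 145 and 173 CP100k, Irf1 at 37.0 and 54.6, and Bst2, in the other direction, at 46.0 and 36.9. Classes taken from clusters gave a module ratio of 0.02. The class was split over 2 clusters, with a ratio of 0.28 (0.12 to 0.44) in one, of 46 CM and 40 TCM cells, and of -0.13 (-0.34 to 0.08) in the other, of 38 and 26 cells. AT2 markers in the class were at 29.2 CP100k in CM and 55.7 in TCM, alveolar fibroblast markers at 22.98 and 42.1, and T cell markers at 19.7 and 6.93, with 9 or more markers of each list detected in each library. Other endothelial markers were more abundant, those of general capillary cells at 455 and 549 CP100k and of lymphatic cells at 142 and 192. Aerocyte markers were lower in TCM, at 117 and 74.6 CP100k. Their part in the result was not tested.

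Smooth muscle had the lowest module level in CM and a ratio of 0.16 (0.02 to 0.31), from 721 UMIs (83.4 CP100k) in CM and 863 (93.5 CP100k) in TCM. Of 15 members tested, 9 were higher, against 52% of all genes, and 2 at least 2-fold higher, against 3.45%. Isg15 had 23 UMIs (2.66 CP100k) in 19 CM cells and 71 UMIs (7.69 CP100k) in 30 TCM cells, a ratio of 1.53 (0.84 to 2.28), and Rtp4 had 5 and 21 UMIs (1.98, 0.53 to 3.74). Eif2ak2 departed downward with 16 and 7 UMIs (-1.29, -2.81 to 0.07), the 1 member at least 2-fold lower, against 2.19% of all genes. Irf1, the leading member, was at 29.7 and 28.9 CP100k and Bst2 at 15.7 and 13.5. Neutrophil markers in the class were at 7.29 CP100k in CM and 58.9 in TCM, the widest such gap of any class. Under the strict selection Isg15 was left with 3 and 2 UMIs and the module ratio turned to -0.19.

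The 3 endothelial classes together held 44.2% of the module's UMIs of the compared classes in both libraries, and in the capillary classes among them the summed share was close between the libraries. General capillary cells had 16930 UMIs (581 CP100k) in CM and 21634 (565 CP100k) in TCM, a ratio of -0.04 (-0.07 to -0.01), 2.73% lower. Of 33 members tested there, 25 were lower, against 49% of all genes, but only Rsad2 was at least 2-fold lower, against 0.742% of all genes, and none was at least 2-fold higher, against 1.92%. Ly6e, which carries the sum, was at 263 and 267 CP100k (0.02), and Bst2 at 51.9 and 43.6 (-0.25, -0.35 to -0.15). Aerocytes, the large capillary cells of gas exchange, had 5835 UMIs (645 CP100k) and 7969 (640 CP100k), a ratio of -0.01 (-0.06 to 0.04). There Ly6e was higher, at 374 and 415 CP100k (0.15, 0.09 to 0.21), and Irf1 lower, and 17 of 27 members were lower, against 49.5% of all genes. Without Ly6e and Bst2 the aerocyte ratio was -0.33. None of the 27 was past 2-fold, against 2.62% of all genes higher and 1.68% lower.

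The lymphocytes other than NK cells differed little. B cells had 253 CP100k in CM and 267 in TCM (0.07, -0.01 to 0.15), with 14 of 21 members lower, against 53.3% of all genes, and Ly6e higher, at 134 and 154 CP100k (0.21, 0.10 to 0.31). T cells had 178 and 191 CP100k (0.10, 0.02 to 0.18), with Ly6e at 27.1 and 34.5 (0.35) and Samhd1 at 24.3 and 30.5 (0.33), both higher in TCM, and 13 of 24 members higher, against 54.9% of all genes. No member was past 2-fold in either class, against 1.95% of all genes higher and 3.01% lower in B cells and 2.34% and 1.65% in T cells.

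Alveolar fibroblasts had 136 CP100k in CM and 122 in TCM (-0.16, -0.24 to -0.09), with Ly6e at 19.2 and 12.5 (-0.62) and Irf1, the leading member, at 34.4 and 31.0 (-0.15). Of 27 members tested, 17 were lower, against 52.1% of all genes, and 1 at least 2-fold lower, against 1.99%, with none at least 2-fold higher, against 1.13%. Adventitial fibroblasts, at 141 and 149 CP100k (0.08, -0.06 to 0.22), had Ly6e higher, at 39.7 and 49.5 (0.32, 0.07 to 0.57), and Parp14 at 16 and 5 UMIs (-1.12, -2.92 to 0.40) as the member that departed. Their 7 of 16 members that were lower stood against 52.1% of all genes, and the 1 at least 2-fold lower against 5.2%. None was at least 2-fold higher, against 1.99%.

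Pericytes, which wrap the capillaries, had 235 CP100k in CM and 217 in TCM (-0.12, -0.22 to -0.01). Of 22 members tested, 17 were lower, against 50.5% of all genes, and 2 at least 2-fold lower, against 2.29%, with none at least 2-fold higher, against 2.08%. Ifit1 had 32 UMIs (4.57 CP100k) in 18 CM cells and 2 UMIs (0.35 CP100k) in 2 TCM cells, a ratio of -3.70 (-6.81 to -1.73), the lowest of any member in any class. Stat2 had 36 and 13 UMIs (-1.17, -2.21 to -0.22). Ly6e was higher, at 72.6 and 86.5 CP100k (0.25, 0.07 to 0.43). With classes from clusters Ifit1 had 54 and 16 UMIs and a ratio of -1.46, and the strict selection left 4 and 1.

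Alveolar macrophages, which live in the air spaces, had 84.5 CP100k in CM and 86.4 in TCM (0.03, -0.08 to 0.15). Isg15 departed, with 42 UMIs (3.08 CP100k) in 25 CM cells and 20 UMIs (1.30 CP100k) in 15 TCM cells, a ratio of -1.24 (-2.09 to -0.44). It was the only 1 of 20 members at least 2-fold lower, against 0.967% of all genes, and 11 of the 20 were lower, against 36.7%. None was at least 2-fold higher, against 3.5%. With classes from clusters Isg15 had 44 and 44 UMIs and a ratio of -0.19. Ifi203 was higher, with 32 and 61 UMIs (0.76, 0.12 to 1.43).

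The genes up the pathway were described from lists given in the processing notes. Of 10 interferon ligands, only Ifng, the gene of interferon gamma, reached 20 UMIs in any class. It had 30 and 10 UMIs in NK cells (5.36 and 3.41 CP100k, ratio -0.66, -1.85 to 0.42) and 16 and 8 in T cells, and neither difference was detectable at this depth. The genes of interferon alpha and beta on the list stayed below that minimum in all 17 classes. Of the 86 pairs of the 6 receptor genes, 38 (44.2%) were higher, against 50.5% of all pairs, 1 (1.16%) was at least 2-fold higher and 2 (2.33%) at least 2-fold lower, both under the shares of all pairs. In neutrophils Ifnar1 had 8.97 CP100k in CM and 6.23 in TCM (-0.52, -1.08 to 0.07) and Ifnar2 24.4 and 19.6 (-0.32, -0.65 to 0.03), and both intervals included 0. In classical monocytes Ifnar2 had 34.4 and 32.3 CP100k (-0.09). Receptor signalling genes and their inhibitors were higher in 74 of 137 pairs (54.0%), at least 2-fold in 5 (3.65%), and 4 pairs (2.92%) were at least 2-fold lower, close to the 3.15% and 2.86% of all pairs. Genes of the induction pathway were higher in 69 of 129 (53.5%), with 7 (5.43%) past 2-fold each way.

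In classical monocytes 6 of 8 receptor signalling genes tested were higher in TCM, 3 of them at least 2-fold. Of 10 induction pathway genes tested, 5 were higher, 2 of them at least 2-fold, and 1 was at least 2-fold lower. Of all genes in this class, 46.4% were lower, 8.03% at least 2-fold higher and 3.92% at least 2-fold lower. Tmem173 (STING), the adaptor of the DNA sensor cGAS, had 16 UMIs (4.55 CP100k) in CM and 149 UMIs (14.0 CP100k) in TCM, a ratio of 1.62, and Jak2 had 6 and 46 UMIs (1.34). Tlr7, an endosomal RNA receptor, had 18 and 24 UMIs (-1.18). In the AT2 class Irf8, a transcription factor of the induction pathway, had 67 and 33 UMIs (-1.23) and was lower in TCM. Markers of B cells (14.5 and 4.69 CP100k) and conventional dendritic cells (6.30 and 2.78) were lower in that class as well. Their part in the value of Irf8 was not tested.

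Further interferon-induced genes outside the module, 24 by list, were lower in 121 of 210 pairs (57.6%), at least 2-fold in 9 (4.29%, against 2.86% of all pairs), and at least 2-fold higher in 3 (1.43%). The list of 17 interferon gamma-induced genes was lower in 109 of 178 pairs (61.2%, against 49.5% of all pairs), at least 2-fold in 18 (10.1%), and at least 2-fold higher in 5 (2.81%). Its median was lowest in AT2 cells (-0.89) and AT1 cells (-0.86). In AT2 cells Iigp1, a GTPase that attacks the vacuoles of parasites, had 48 and 16 UMIs (-1.79), and Gbp4, a guanylate-binding protein, 61 and 35 (-1.01). Neutrophils showed the highest median of this list, 0.31, in which Gbp2 had 34 UMIs (9.53 CP100k) in CM and 906 UMIs (34.4 CP100k) in TCM, a ratio of 1.85. Gbp2 was thus higher in TCM, as Trim30a was in these cells, whereas Rsad2 was lower. Cxcl9, a chemokine that interferon gamma induces, had 28 UMIs in CM and none in TCM in classical monocytes. Its level was 28.2-fold lower in TCM when a floor of 3 counts over the class took the place of 0. That fold leaves out the counting error of the 28 CM UMIs.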

How the data were processed

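The members, marker lists, role groups and pathway lists were chosen with earlier results of these data known. The authors made the libraries with a 10x Genomics 5' kit, and the submitters' processing notes name Cell Ranger, Seurat and build mm10 (GRCm38.p6). The deposited matrices hold raw UMI counts per gene and barcode, with no normalization, and their headers name Cell Ranger version 4. The CM matrix summed to 31944151 UMIs and the TCM matrix to 36648719.

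Groups came from the treatment labels. Python 3.11.15 with numpy 2.4.6, scipy 1.17.1 and pandas 2.3.3 was used. Each of 28 classes had 5 to 11 markers. A cell took the class with the largest Poisson deviance of its marker UMIs above their mean share in both libraries, provided that the deviance was at least 3, that at least 2 markers were detected and that it was over 2 times the next class's. Cells with markers of 2 classes (570 in CM, 480 in TCM) were left out, which was the treatment of doublets. Scrublet (scanpy 1.11.5), at an expected rate of 6%, called 0 cells in each library, so its threshold had not worked, and the top 6% by score were removed only as an alternative. UMIs were summed by class and library. Intervals are 95% intervals, Poisson for a sum and conditional binomial for a ratio, and the steps were tested on simulated counts. Where a sum was 0, 3 counts took its place, and the fold given with that floor leaves out the counting error of the other sum. No filter other than 20 UMIs per gene and class was applied to genes.

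Members named in a class are those that departed by at least 1 from the module, the 3 with most UMIs and up to 4 with extreme ratios. Further members named under a role were picked after their values were seen. Pathway genes are named from the lists only, namely 10 ligands, 6 receptors, 9 genes of receptor signalling, 14 of the induction pathway (13 listed as features), 24 further type I interferon-induced genes (22 listed) and 17 induced by interferon gamma. Alternatives were Leiden clusters (leidenalg 0.10.2) made without members and listed interferon genes and named by the gated class of most of their cells, other cell filters, thinning of each cell to 1000 UMIs, means over cells, subtraction of free RNA, centring on all genes, and the module without abundant members or the 10 cells with most module UMIs. A stricter gate and a second free RNA profile were added after the data had been seen. Coordinates are from RefSeq promoters on GRCm38.p6.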

Additional observations from a re-analysis of the deposited data

Results flagged for a closer look

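The module's ratio differed in sign between classes. Conventional dendritic cells had a log2 ratio of -0.80 and large vessel endothelial cells 0.23, with counting intervals on opposite sides of 0. With 1 library per group the difference between the 2 classes was not tested against the spread between mice.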

How the results depend on the processing

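No paired analysis was possible because each group held 1 library. Of 204 module ratios recomputed under alternatives, 156 stayed within the counting interval of the reported value. In all, 17 did not keep the sign of the reported value at 2 decimals, 14 of them in the 4 classes whose reported interval includes 0. These were 5 in aerocytes (up to 0.14, with 1 at 0.00), 5 in alveolar macrophages (down to -0.15), 3 in adventitial fibroblasts (down to -0.20) and 1 in B cells (-0.09). The other 3 were those of pericytes (0.03) and smooth muscle (-0.19) under the strict gate and of neutrophils without the 10 cells with most module UMIs (0.04). The strict gate also gave AT1 -0.08, AT2 -0.08, adventitial fibroblasts 0.47, aerocytes 0.14, alveolar fibroblasts -0.26, general capillary cells -0.12, large vessel cells 0.59 (13 CM and 4 TCM cells) and neutrophils -0.31. Under it 24 of 252 pairs were at least 2-fold lower (9.52%, against 3.52% of all genes) and 14 at least 2-fold higher (5.56%, against 3.82%). Thinning gave AT1 -0.60, adventitial fibroblasts -0.20, aerocytes 0.04, alveolar fibroblasts -0.04, alveolar macrophages -0.15, general capillary cells -0.08, and 0.49 in both interstitial macrophages and smooth muscle. Of 206 pairs tested after thinning, 8 were at least 2-fold higher (3.88%, against 3.8% of all genes) and 16 lower (7.77%, against 3.83%). Leiden clusters gave alveolar fibroblasts -0.06, conventional dendritic cells -0.45, interstitial macrophages 0.02, large vessel cells 0.02 and neutrophils -0.06. Means over cells gave AT1 -0.57, AT2 -0.68, B cells 0.16, NK cells -0.26, aerocytes 0.07, classical monocytes -0.24, general capillary cells -0.07, and 0.39 in both interstitial macrophages and smooth muscle. Free RNA subtraction gave AT2 and NK cells -0.64 each and alveolar fibroblasts -0.25. Centring gave neutrophils -0.06, where the median of all genes was -0.13. Without high doublet scores AT2 cells were at -0.88 and pericytes at -0.31. Without Ly6e and Bst2 the values were AT2 -0.41, B cells -0.09, adventitial fibroblasts -0.07, aerocytes -0.33 and pericytes -0.34. Without the 10 cells with most module UMIs, AT2 cells were at -0.44, classical monocytes at -0.18, conventional dendritic cells at -0.23 and general capillary cells at -0.01. These 10 cells are a larger part of a class in the library that holds fewer of its cells. A minimum of 4 UMIs per gene gave 27 of 518 pairs higher (5.21%, against 6.84% of all genes) and 62 lower (11.97%, against 7.7%), and one of 50 UMIs gave 3 of 288 (1.04%, against 1.37%) and 12 (4.17%, against 1.1%). The cause was not tested for any of these values. Sums under 20 UMIs limit most statements on Oas3, Rsad2, Oas2 and Oasl1, tested in 2 to 4 classes.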

Other observations

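Mesothelial cells, which line the lung's surface, were too few to compare, with 38 CM and 44 TCM cells and a median depth of 1304 and 639 UMIs. Their module level was 280 CP100k (258 to 304) in CM and 466 CP100k (432 to 503) in TCM. Non-classical monocytes, the monocytes that patrol vessels, had 567 CP100k (523 to 614) in 43 CM cells and 624 CP100k (556 to 698) in 22 TCM cells. The RNA of droplets with at most 50 UMIs held the module at 217 CP100k in CM and 270 CP100k in TCM.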
